A study of Mus musculus with 4 samples.

Results

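The genes Dazl, Ddx4, Sycp1 and Sycp3 are used by germ cells, and their DNA methylation was read in mouse sperm from the CG sites of 4 stretches of the mm9 genome that hold these genes: 23001 bp on chromosome 17 for Dazl, 63001 bp on chromosome 13 for Ddx4, 127001 bp on chromosome 3 for Sycp1 and 28001 bp on chromosome 10 for Sycp3. These stretches hold 1732 CG sites, of which 352 had at least 5 reads in every library, out of 2638319 such sites on chromosomes 1 to 19, X and Y. By gene, 90 of them belong to Dazl, 108 to Ddx4, 95 to Sycp1 and 59 to Sycp3. The genes were picked by name, with earlier results of these data known.

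Spermatozoa of wild-type C57BL/6 mice of 11 to 12 weeks were compared as 2 fractions with 2 libraries each. The labels name caudal epididymis and vas deferens as the source for all 4 libraries, while the study describes swim-up sperm from the caudal epididymis. Swim-up sperm is the motile fraction, and the study treats part of it as not yet done with the exchange of histones for protamines. Histone replacement-completed sperm (HRCS) are sperm heads freed by mild sonication and pelleted through 82% Percoll, which the study takes as done with that exchange. Genomic DNA was enriched with capture probes, converted with bisulfite and sequenced (targeted bisulfite sequencing, TGBS). The level of a CG site is the methylated share of its reads, in percent, and the sites of a region were averaged with equal weight. At the 352 sites the median number of reads was 16 and 15 in swim-up sperm 1 and 2, and 28 and 22 in HRCS 1 and 2, so the level of a single site has a wide counting error, and that of a region of many sites a smaller one. The labels do not say whether replicates came from separate animals, so the spread between them may be technical.

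Most of the genome outside CpG-dense stretches is methylated in mammalian sperm, whereas CpG islands (stretches rich in CG sites, often at gene starts) mostly are not. Genes for germ-cell work form a known exception in the body: many carry an island at their start that is methylated and silent in somatic cells and free of methylation in the germline. Dazl encodes an RNA-binding protein needed for germ-cell development, and Ddx4 (mouse vasa homologue) an RNA helicase of germ granules. Sycp1 and Sycp3 encode the transverse filament and the lateral element of the synaptonemal complex, which joins homologous chromosomes in meiosis.

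The sequence before each start shows where the CG sites lie that the levels below refer to. The stretches are from RefSeq promoters of GRCm38.p6, written 5′ to 3′ in the direction of the gene, and capitals mark CG. Those of Dazl (chr17:50293621-50293870, minus strand), Sycp1 (chr3:102936101-102936350, minus strand) and Sycp3 (chr10:88459337-88459586, plus strand) are the 250 bases before the start. For Ddx4 only 30 bases around a CACGTG are given (chr13:112652322-112652351, minus strand), since predicted transcripts of that gene begin further upstream.
Dazl: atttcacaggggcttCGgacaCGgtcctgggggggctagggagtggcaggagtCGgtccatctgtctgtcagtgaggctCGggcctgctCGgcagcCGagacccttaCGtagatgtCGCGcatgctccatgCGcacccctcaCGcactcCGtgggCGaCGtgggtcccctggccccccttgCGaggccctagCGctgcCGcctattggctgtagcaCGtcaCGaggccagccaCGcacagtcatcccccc
Sycp1: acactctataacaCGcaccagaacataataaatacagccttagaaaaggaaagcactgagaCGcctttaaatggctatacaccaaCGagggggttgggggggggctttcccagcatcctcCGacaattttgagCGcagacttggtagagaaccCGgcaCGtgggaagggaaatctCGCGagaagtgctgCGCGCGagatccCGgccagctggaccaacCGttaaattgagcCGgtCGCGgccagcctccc
Sycp3: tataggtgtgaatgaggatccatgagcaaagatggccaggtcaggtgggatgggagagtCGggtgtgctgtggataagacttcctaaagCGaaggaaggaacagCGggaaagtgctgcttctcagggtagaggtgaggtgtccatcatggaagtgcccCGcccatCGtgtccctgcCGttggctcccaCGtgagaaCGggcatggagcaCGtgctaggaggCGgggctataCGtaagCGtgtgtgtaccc
Ddx4: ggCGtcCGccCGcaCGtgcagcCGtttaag

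Dazl has 20 CG in these 250 bases, Ddx4 31, Sycp1 17 and Sycp3 12, with a G+C content of 67.2%, 70.4%, 55.2% and 57.2%. A pair of short motifs was searched on both strands of the 300 bp promoter (250 bases before to 50 after the start): CACGTG, the E-box read by MGA and MAX, and GCGGGA, which reads TCCCGC on the other strand, bound by E2F6. These factors belong to a Polycomb complex known for holding germline genes silent in other cells. CACGTG begins 29 bases upstream of the Ddx4 start, 94 bases upstream of the Sycp1 start, and 64 and 43 bases upstream of the Sycp3 start. GCGGGA or its complement begins 136 bases upstream in Ddx4 and 147 bases upstream in Sycp3, and in Sycp1 it lies just after the start. Dazl holds neither run of letters in this window. Among all 32544 distinct promoters of the table, 7.17% hold CACGTG, 20.1% hold GCGGGA or its complement and 2.01% hold both. Among the 11347 with at least 15 CG these shares are 11.3%, 45.5% and 5.05%. A match is a match of letters only.

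Each gene starts inside one CpG-dense run, found from CG positions alone as the run of CG sites at most 100 bp apart that holds the densest 500 bp of the locus. The Dazl island spans 2039 bp (chr17:50431762-50433800) with 145 CG, from 855 bp upstream of the start to 1183 bp downstream, in exon 1 and intron 1. That of Ddx4 spans 898 bp (chr13:113441987-113442884) with 79 CG, and ends in intron 1. The Sycp1 island spans 1290 bp (chr3:102739025-102740314) with 94 CG and reaches into intron 2, and that of Sycp3 spans 1659 bp (chr10:87921763-87923421) with 67 CG and ends in intron 1. CG density is 7.11, 8.80, 7.29 and 4.04 per 100 bp in the islands of Dazl, Ddx4, Sycp1 and Sycp3. Elsewhere in the same loci it is 0.515, 0.710, 0.528 and 0.509 per 100 bp, so the Sycp3 island is the loosest of the 4.

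All 4 start islands were nearly free of methylation in all 4 libraries. Of their 309 sites with enough reads, 289 had a mean level of at most 5%, 5 had a mean level above 10%, and 138 (44.7%) had no methylated read in any library. In Dazl the level of the island over 89 sites was 0.659% and 0.399% in swim-up sperm 1 and 2, and 1.03% and 2.00% in HRCS 1 and 2. In Ddx4, over 71 sites, it was 1.70% and 1.32% in swim-up sperm against 1.53% and 1.76% in HRCS.

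The genes of the synaptonemal complex had island levels of the same order. Sycp1, over 90 sites, was at 2.44% and 1.99% in swim-up sperm against 1.71% and 1.86% in HRCS. Sycp3, over 59 sites, was at 2.41% and 3.19% in swim-up sperm against 2.17% and 2.26% in HRCS. These island values all lie between 0.399% and 3.19%. Sites without any methylated read were more frequent in the islands of Dazl (54 of 89) and Ddx4 (49 of 71) than in those of Sycp1 (20 of 90) and Sycp3 (15 of 59), which also had other read depths, so the counts are given without a test.

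**Figure D1:**
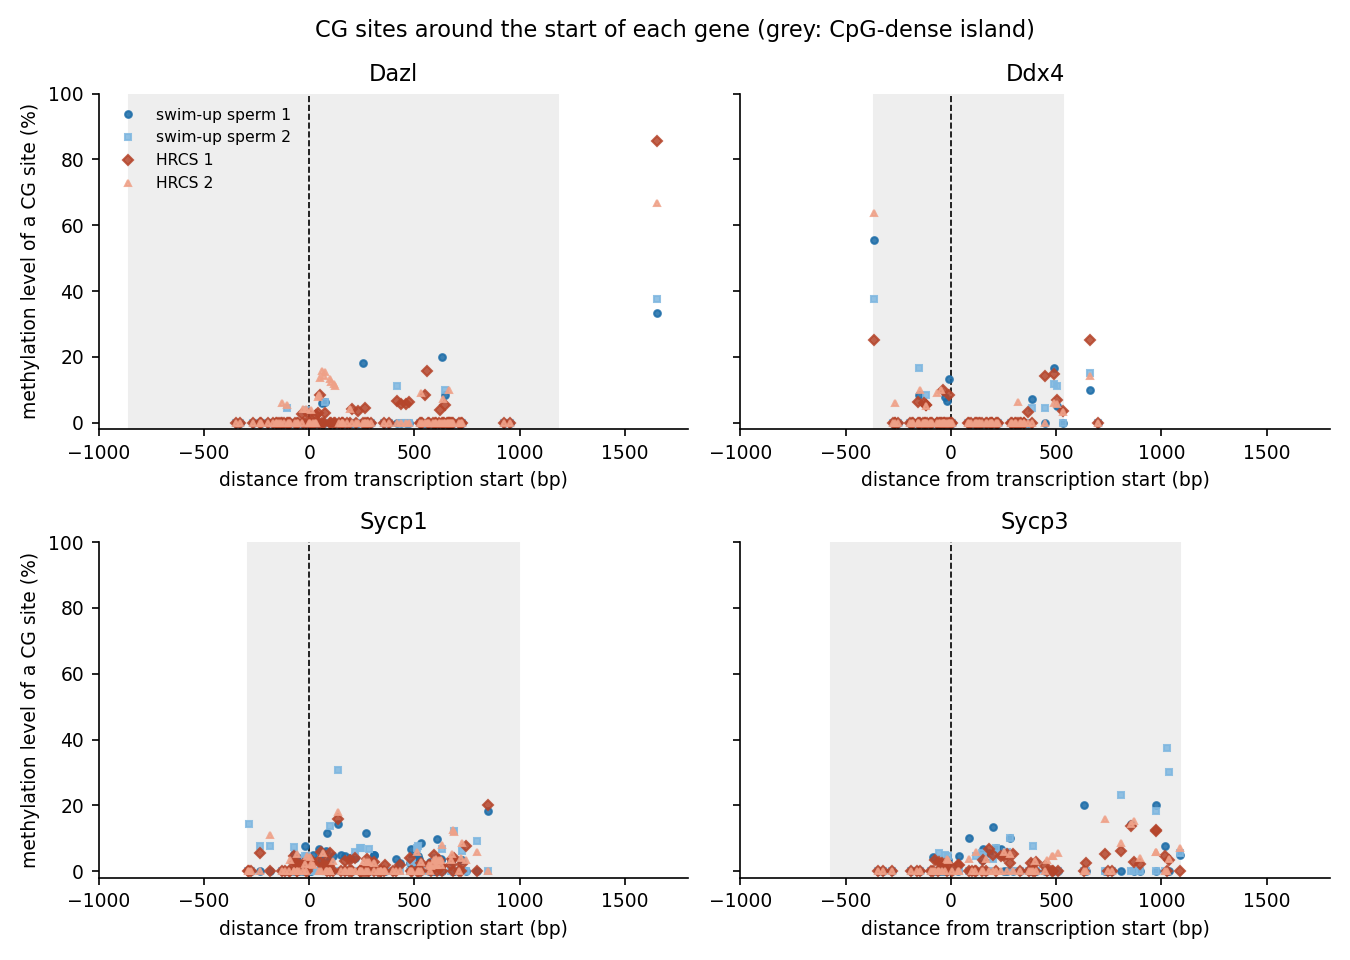
Methylation level (%) of each CG site against its distance from the transcription start (bp), with blue symbols for the 2 swim-up libraries and red symbols for the 2 HRCS libraries, and the CpG-dense island in grey. Most of the 309 island sites sit at or near 0 in every library, with single sites raised at the upstream edge of Ddx4, 135 bp into Sycp1 and in the last part of the Sycp3 island.

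Within the islands, the low level held on both sides of the start. Upstream of the start the mean over the 4 libraries was 0.33% in Dazl (23 sites), 2.25% in Ddx4 (36 sites), 1.60% in Sycp1 (19 sites) and 0.719% in Sycp3 (15 sites). In exon 1 it was 1.89% in Dazl (23 sites), 0% in Ddx4 (2 sites only), 2.20% in Sycp1 (13 sites) and 1.16% in Sycp3 (7 sites). The Dazl exon 1 value rests on HRCS 2, with 0.527% and 0.272% in swim-up sperm against 1.03% and 5.74% in HRCS, and the upstream value of Ddx4 includes 1 edge site with a mean of 45.4%. Intron 1 gave 0.927%, 0.941%, 1.59% and 3.49% in Dazl, Ddx4, Sycp1 and Sycp3. Sycp3 thus had its higher values after exon 1, and its 3 highest island sites lie 809, 857 and 977 bp downstream of the start.

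A few island sites stood above their neighbours. The outermost upstream site of the Ddx4 island, 366 bp before the start, was at 55.6% and 37.5% in swim-up sperm against 25% and 63.6% in HRCS, on 8 to 12 reads. The next site with enough reads, 91 bp closer to the start, was at 0% in all 4 libraries. Both lie in the upstream end of the island.

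The only Sycp1 island site with a mean level above 10% lay 135 bp after the start, at the beginning of intron 1. Its level was 14.3% and 30.8% in swim-up sperm against 15.8% and 17.9% in HRCS, on 13 to 39 reads. Its neighbours at 16 and 21 bp had mean levels of 1.25% and 1.95%. The next highest Sycp1 island sites, 849 and 690 bp after the start in intron 2, had mean levels of 9.55% and 7.03%. The highest site of the Sycp3 island, 977 bp after the start, was at 20.0% and 18.2% in swim-up sperm against 12.5% and 5.88% in HRCS.

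The highest site of the Dazl island, at 76 bp in exon 1, reached a mean level of only 7.71%, and it belongs to a run seen mainly in HRCS 2. Over 10 consecutive sites from 44 to 124 bp after the start, HRCS 2 had 7.69% to 15.8% at each site, from 2 or 3 methylated reads out of 13 to 26. At the same sites the methylated calls (1 read at 1 CG site) were 2 of 187 in swim-up sperm 1, 1 of 206 in swim-up sperm 2, 5 of 376 in HRCS 1 and 22 of 184 in HRCS 2. The run is 81 bp long and a read can span it, so the 22 calls can come from as few as 3 reads. The run was picked as the longest row of sites above 5% in HRCS 2. Its raised level in HRCS 2, and a lower level there without it, therefore follow from the choice. Without these sites the Dazl island in HRCS 2 was at 0.682%, against 0.589%, 0.371% and 0.983% in swim-up sperm 1 and 2 and HRCS 1.

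The gene interiors were methylated where they could be read. Few reads fell there: beyond the island on the transcribed side, 37 sites of Ddx4, 5 of Sycp1, 1 of Dazl and none of Sycp3 had at least 5 reads in every library. Inside Ddx4 and over 2 kb from its island, 20 sites gave 94.3% and 95.2% in swim-up sperm against 96.7% and 96.8% in HRCS. They lie in introns 2, 3, 4, 8 and 12 and in exon 9, between 5930 and 30712 bp from the start. Sycp1 gave 92.9% and 95.7% in swim-up sperm against 98.8% and 98.3% in HRCS over 5 sites. These are in introns 20, 29 and 30, between 54653 and 104456 bp from the start, so the nearer part of the gene was not read. Of the 100 values of these 25 sites in 4 libraries, 54 were 100% and 2 were below 80%.

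For Dazl and Sycp3, the calls of all sites inside the gene and over 2 kb from the island were added instead, whatever their depth. Methylated calls in Dazl were 10 of 10 and 24 of 24 in swim-up sperm and 6 of 7 and 7 of 8 in HRCS. In Sycp3 they were 15 of 17 and 11 of 11 in swim-up sperm and 4 of 4 and 4 of 4 in HRCS. At so few calls the 95% Wilson interval is wide, from 72.2% to 100% for 10 of 10 and from 51% to 100% for 4 of 4. Intervals here cover counting error only. They count calls as independent, though a read can give calls at several CG sites, so they may be too narrow. The same sum gave between 95.2% and 97.6% in Ddx4 and between 87.4% and 94.9% in Sycp1.

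**Figure D2:**
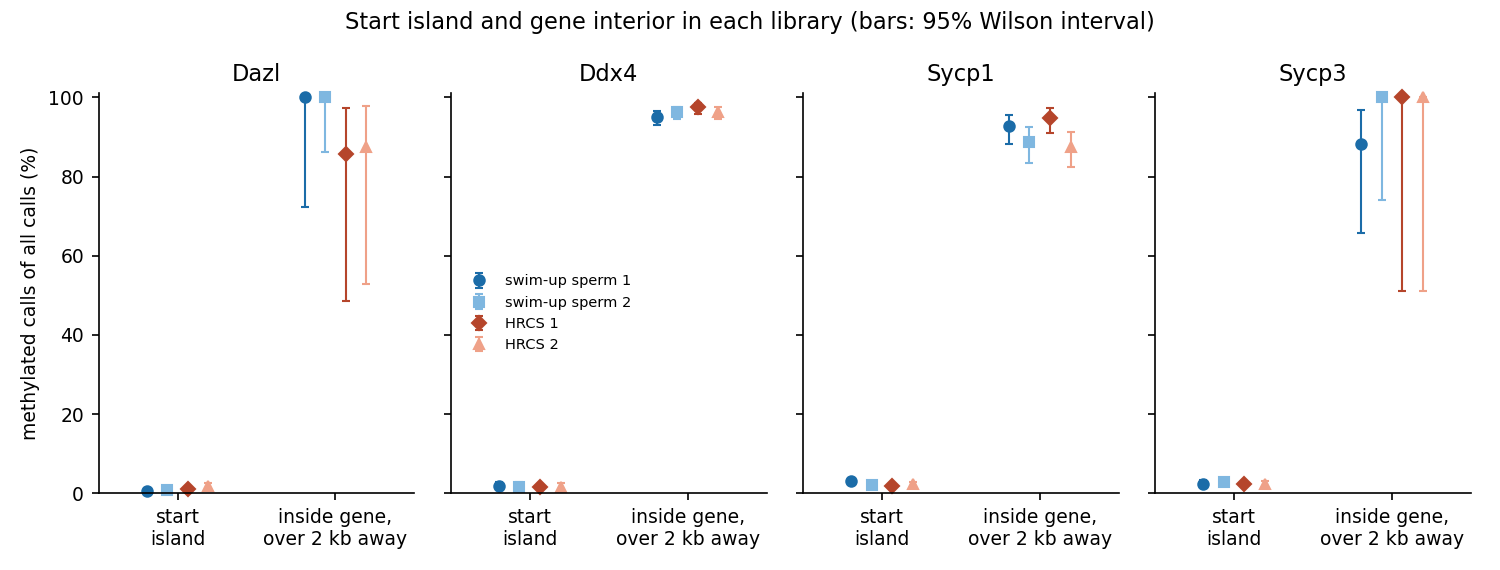
Methylated calls as a percentage of all calls in the start island and inside the gene over 2 kb from the island, for each of the 4 libraries, with 95% Wilson intervals as bars. In each gene and library the island lies near 0 and the interior at 85.7% or above, with wide bars for Dazl and Sycp3, which have 4 to 24 calls per library there.

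Island and interior were then compared within each library. In Ddx4 the island differed from the interior over 2 kb away by −92.6 and −93.8 percentage points in swim-up sperm and by −95.2 and −95.1 points in HRCS (mean −94.2 ± 1.20, SD, n = 4 libraries). Sycp1 gave differences of −90.5, −93.7, −97.1 and −96.5 points in the same order of libraries (mean −94.4 ± 3.02, SD, n = 4). For Dazl only 1 site beyond the island had enough reads, 1651 bp after the start, at 33.3% and 37.5% in swim-up sperm against 85.7% and 66.7% in HRCS on 6 to 8 reads, and the mean difference was −54.8 ± 24.4 points (SD, n = 4). The difference was negative in 4 of 4 libraries for each of these genes, each with p = 0.12 in a two-sided exact sign-flip permutation test over libraries, which is the smallest p that 4 libraries allow. In Sycp3 no such site exists, and added calls gave −94.7 ± 5.80 points (SD, n = 4), with the island lower in 4 of 4 libraries and the same exact p. On added calls the Dazl difference was −92.3 ± 8.11 points (SD, n = 4).

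The full transcribed side of Ddx4 includes 2 other kinds of site. With all 37 sites its level was 79.9% and 78.6% in swim-up sperm against 80.1% and 78.3% in HRCS, and the island was lower by 77.6 ± 0.906 points (SD, n = 4; exact sign-flip permutation p = 0.12). Of the 37, 2 sites in intron 1 at 660 and 700 bp from the start, just beyond the island, were at 5.00% to 12.5% on average per library. Another 15 lie past the gene end, 57144 to 57468 bp from the start, and were at 70.5% and 66.0% in swim-up sperm against 67.0% and 63.1% in HRCS. Their site means ran from 41.2% to 89.0%, on 12 to 77 reads. Of these 15 sites, 12 lie in the pseudogene Gm3226. The stretch of 426 bp around the 15 has 4 other places in GRCm38 with at least 95% identity over at least 90% of its length, the nearest at 97.0%. Reads of these copies may be mixed here, so the values are uncertain. Only this stretch was searched for copies, and the sites inside the genes were not.

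**Figure D3:**
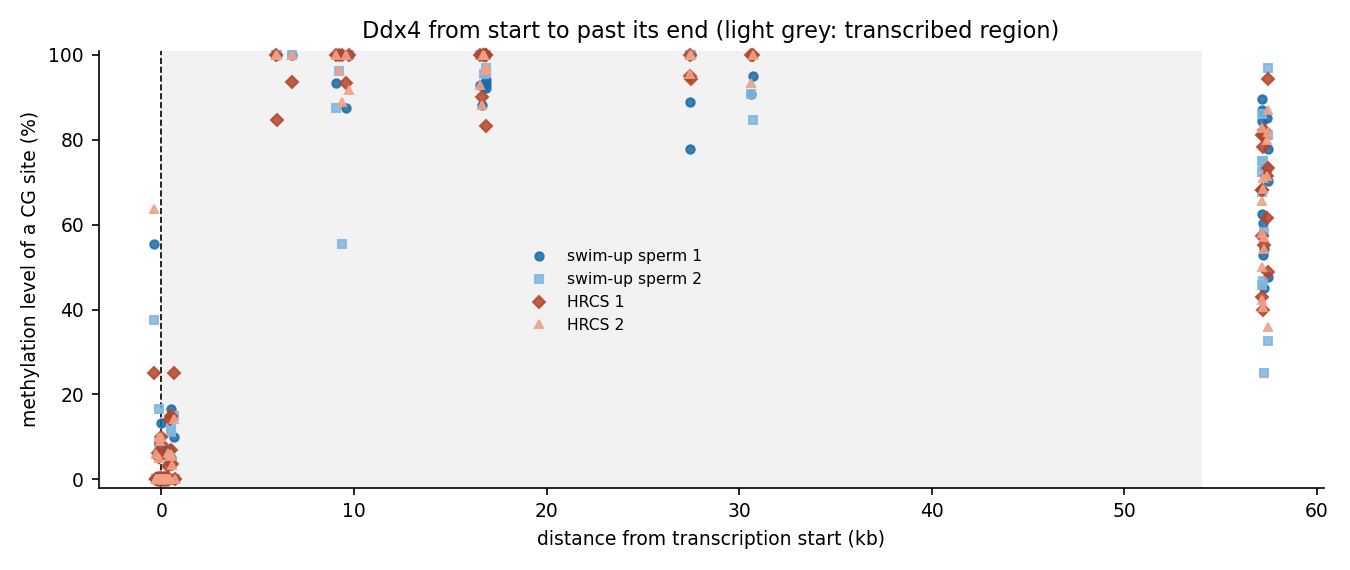
Methylation level (%) of every Ddx4 CG site with at least 5 reads in each library, against distance from the start (kb), with the transcribed region in light grey. The start, with the first part of the gene, is near 0, and most sites further inside the gene, over 2 kb from the island, lie above 80%. The group past the gene end, most of it in the pseudogene Gm3226, is spread between 25% and 96.9%.

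The low stretch ended at different distances. For this the calls of all sites and libraries were added in steps from the island edge. Downstream of Dazl the share of methylated calls was 55.6% within 0.5 kb of the island edge (15 of 27 calls), 64.3% at 0.5 to 1 kb (18 of 28) and 95.9% at 2 to 5 kb (47 of 49). The first of these steps is the single site given above, which ran from 33.3% to 85.7% by library, and the next ran from 40% to 100%, so the libraries are unlike there. Upstream of Dazl it was 20.0% at 0.5 to 1 kb (2 of 10), 54.8% at 1 to 2 kb (17 of 31) and 86.7% at 2 to 5 kb (26 of 30). Ddx4 had 16.8% within 0.5 kb downstream (31 of 184 calls), with 15.4% and 15.6% in swim-up sperm against 17.6% and 18.9% in HRCS. Upstream of Ddx4 it was 21.4% within 0.5 kb (3 of 14 calls), 0 of 3 calls at 0.5 to 1 kb, and 11 of 11 at 1 to 2 kb.

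Sycp3 stayed low far beyond its island on the upstream side. There the share was 3.33% within 0.5 kb (1 of 30 calls), 4.65% at 0.5 to 1 kb (2 of 43) and 3.05% at 1 to 2 kb (4 of 131), and 69.4% at 2 to 5 kb (77 of 111). In the last step it was 92.0% and 86.7% in swim-up sperm against 51.4% and 47.6% in HRCS, on 21 to 35 calls per library. The fractions do not overlap there, but sites with reads can differ between libraries at this depth and the gap was found among 32 such steps, so no test was made. Sycp1 had 10.4% within 0.5 kb upstream (5 of 48 calls) and only 3 to 18 calls in any further step with calls.

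**Figure D4:**
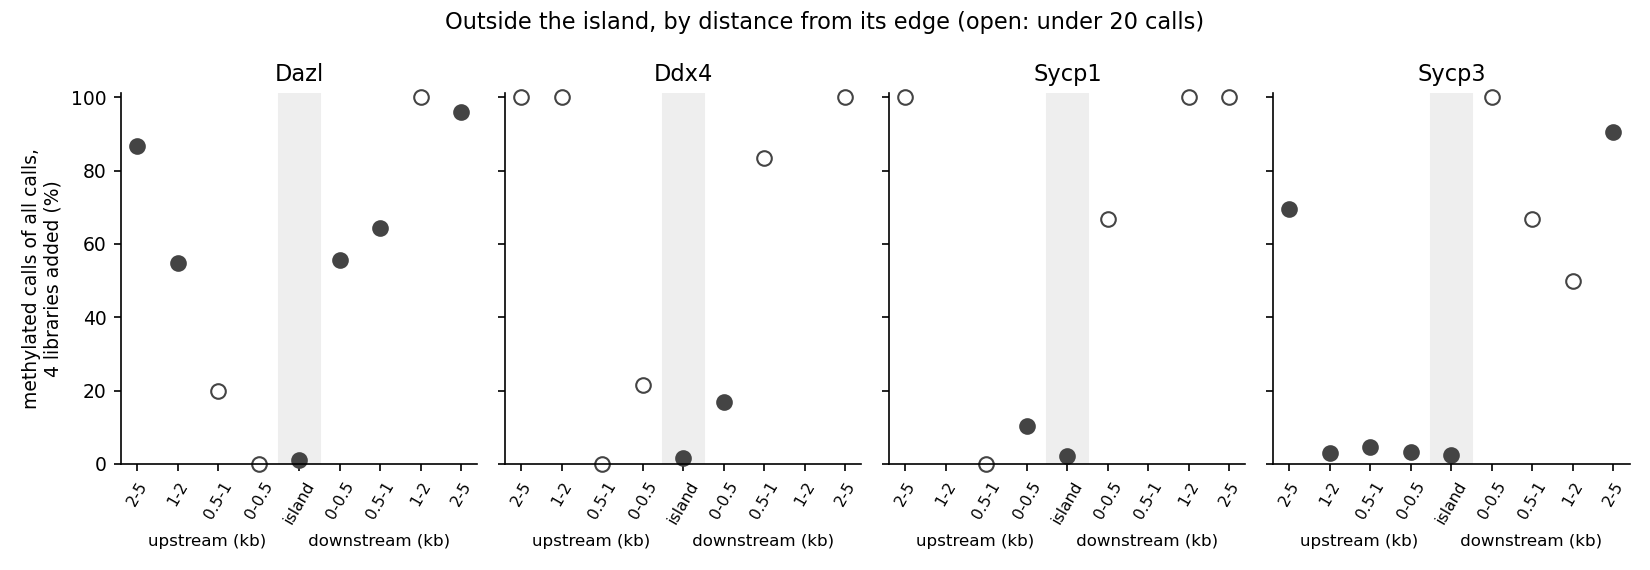
Methylated calls as a percentage of all calls, 4 libraries added, in the island (grey band) and in steps of distance from its edge (kb) upstream and downstream of each gene; open circles have under 20 calls. Levels rise on both sides of Dazl within 2 kb, while Sycp3 stays at 3.05% to 4.65% up to 2 kb upstream.

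The fractions were compared next. By the study's count only a small part of swim-up sperm is not done with the exchange of histones, so most sperm of both fractions are. HRCS also differ by sonication, loss of tails and Percoll selection, and were not picked for motility. The contrast is therefore one of 2 preparations and cannot single out the exchange. Island levels of HRCS and swim-up sperm differed by 1 percentage point or less. In Dazl the mean of HRCS was 1.51% ± 0.682 (SD, n = 2) and that of swim-up sperm was 0.529% ± 0.183 (SD, n = 2), a difference of 0.985 points. In Ddx4 they were 1.64% ± 0.161 and 1.51% ± 0.262 (SD, n = 2 each), a difference of 0.134 points. In Sycp1 HRCS had 1.79% ± 0.110 and swim-up sperm 2.21% ± 0.322 (SD, n = 2 each), a difference of −0.429 points. In Sycp3 the means were 2.22% ± 0.0650 and 2.80% ± 0.554 (SD, n = 2 each), a difference of −0.585 points.

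Both HRCS libraries lay above both swim-up libraries in Dazl and below them in Sycp1 and Sycp3, and the groups overlapped in Ddx4. Two-sided exact permutation tests over the libraries gave p = 0.33 for Dazl, Sycp1 and Sycp3, the smallest that 2 against 2 allow, and p = 0.667 for Ddx4. Over 316993 windows of 200 bp, both HRCS libraries lay above both swim-up libraries in 16.6% and below both in 16.1%, so groups that do not overlap are frequent with 2 libraries each. The Dazl difference rests on HRCS 2: it was 0.502 points without that library and 1.47 points without HRCS 1. The Sycp1 difference was −0.202 points without swim-up sperm 1 and −0.657 without swim-up sperm 2, and that of Sycp3 was −0.977 and −0.193 in the same order. In Ddx4 the sign turned, to −0.0513 points without swim-up sperm 2 and to −0.0645 on added calls (exact permutation p = 0.33). On added calls of such sites the fractions overlapped in Sycp1 and Sycp3, with differences of −0.275 (exact permutation p = 0.667) and −0.225 points (exact permutation p = 1).

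In the gene interiors the direction of the difference depended on the gene and on the sites used. Inside Ddx4, over 2 kb from the island, HRCS exceeded swim-up sperm by 2.04 points (96.8% ± 0.0858 against 94.7% ± 0.581; SD, n = 2 each), and in Sycp1 by 4.27 points (98.6% ± 0.347 against 94.3% ± 1.92; SD, n = 2 each). Both gave p = 0.33 by the exact permutation test. For Ddx4 the sign rests on the choice of sites: with the sites past the gene end and next to the island included, the difference was −0.0206 points. In Sycp1 it rests on 5 of 591 listed sites: added calls of all of them gave 92.7% and 88.7% in swim-up sperm against 94.9% and 87.4% in HRCS, so the fractions overlapped. In Dazl the few calls added over 2 kb from the island went the other way, with 100% and 100% in swim-up sperm against 85.7% and 87.5% in HRCS. Those of Sycp3 were 88.2% and 100% against 100% and 100%. The single Dazl site beyond the island differed by 40.8 points (exact permutation p = 0.33), on 6 to 8 reads per library.

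Methylated and unmethylated calls were also tested in windows of 200 bp with at least 3 sites, with edgeR's quasi-likelihood test across all 316993 windows and Benjamini-Hochberg adjustment. Of the 27 windows in the 4 loci, 24 touch an island. None of the 27 passed an adjusted p of 0.05, against 0.00410% of all windows (13 windows), and 1 had an unadjusted p under 0.05, against 4.61% of all windows. HRCS was higher in 10 windows, lower in 14 and equal in 3, with a median difference of −0.0596 points and a range from −4.22 to 3.53 points, beside a median of 0.0162 points over all windows. The lowest value is from a Ddx4 window past the gene end, where values are uncertain. The highest is from a Ddx4 window of 3 sites that reaches past the downstream island edge. Both HRCS libraries lay above both swim-up libraries in 3 of the 27 and below both in 3, beside 16.6% and 16.1% of all windows.

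The window with the smallest p lies over the Dazl start (chr17:50432801-50433000, 21 sites) and holds the run in HRCS 2 described above. Its level was 0.578% and 0.481% in swim-up sperm against 1.05% and 6.48% in HRCS, with an unadjusted p of 0.00108 and an adjusted p of 0.838 in edgeR's quasi-likelihood test. The higher level in HRCS rests mostly on HRCS 2, since HRCS 1 was at 1.05%. Fisher's exact test on calls added within each fraction called this window (adjusted p = 0.0258) and none of the other 26, and it called 0.756% of all windows. Fisher's test ignores the spread between replicates and counts calls of the same read as independent.

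The 300 bp promoters of the 4 genes were set beside those of all genes whose promoter could be placed in mm9. Placing needed at least 6 CG, the promoter with the most CG was kept for each gene, and at least 3 sites with enough reads were required. This set, called all promoters below, thus leans to CG-rich promoters. Their levels in swim-up sperm 1 and 2 and HRCS 1 and 2 were 0%, 0.293%, 0.387% and 1.41% in Dazl. In Ddx4 they were 1.09%, 0.758%, 1.24% and 1.03%, in Sycp1 1.84%, 1.72%, 1.58% and 1.76%, and in Sycp3 0.815%, 1.01%, 1.14% and 0.477%. All 4 means are at most 5%, as in 93.3% of the 12924 promoters compared, so within this set a low level is no mark of these genes. Of all promoters, 4% lay at or below the mean of Dazl, 41.6% at or below Ddx4, 23.9% at or below Sycp3 and 80.7% at or below Sycp1.

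CG content goes with the level over all promoters. With 6 to 9 CG, 57.5% of 1479 promoters were at 5% or less, and with 10 to 14 CG 90.6% of 1812. With 15 to 19 CG it was 98.2% of 2122, with 20 to 29 CG 99.7% of 4165 and with 30 or more CG 99.5% of 3346. The promoters of Sycp3, Sycp1, Dazl and Ddx4 have 15, 21, 28 and 38 CG. Both HRCS libraries lay above both swim-up libraries in the Dazl promoter only, among the 4, while this was so in 21.0% of all promoters and the reverse in 12.3%.

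A list of 50 other germ-cell genes gave the same picture. A promoter level could be read for 39 of them, and 38 were at 5% or less, beside 93.3% of all promoters. Their median was 1.04%, beside 1.12% over all promoters. All 10 genes read among those of the synaptonemal complex and cohesin lay between 0.416% and 2.15%, and all 13 of the piRNA pathway and germ granule between 0% and 2.50%. In the recombination group 5 of 6 were at 5% or less, and in the group of other germ-cell genes 10 of 10, between 0.538% and 2.95%. Beside the 93.3% of all promoters, these counts set no group apart. Both HRCS libraries lay above both swim-up libraries in 9 of the 39 and below both in 7, beside 21.0% and 12.3% of all promoters. No level was read for Spo11, Meiob, Tex11, Tdrd6, Piwil2, Dnd1, Rad21l, Nanos2, Nanos3, Mei1 and Asz1.

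The exception was Msh4, which encodes a protein of meiotic crossing over. Its promoter was at 63.4% and 69.8% in swim-up sperm against 60.2% and 57.2% in HRCS, over 6 CG. In its CG class (6 to 9 CG) 71.3% of promoters were at 25% or less.

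The 5 list genes whose levels in the 4 libraries lay closest to the mean of the 4 genes were Tdrkh and Tdrd1, both of the piRNA pathway, Stag3, a meiotic cohesin subunit, Rpl10l, a ribosomal protein gene used in testis, and Prdm9, which marks recombination sites. Their Euclidean distances over the 4 libraries were 0.322 for Tdrkh, 0.360 for Stag3, 0.478 for Rpl10l, 0.512 for Tdrd1 and 0.752 for Prdm9, in percentage points. With nearly all promoters within a few points of 0, these ranks are a description of small differences.

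**Figure D5:**
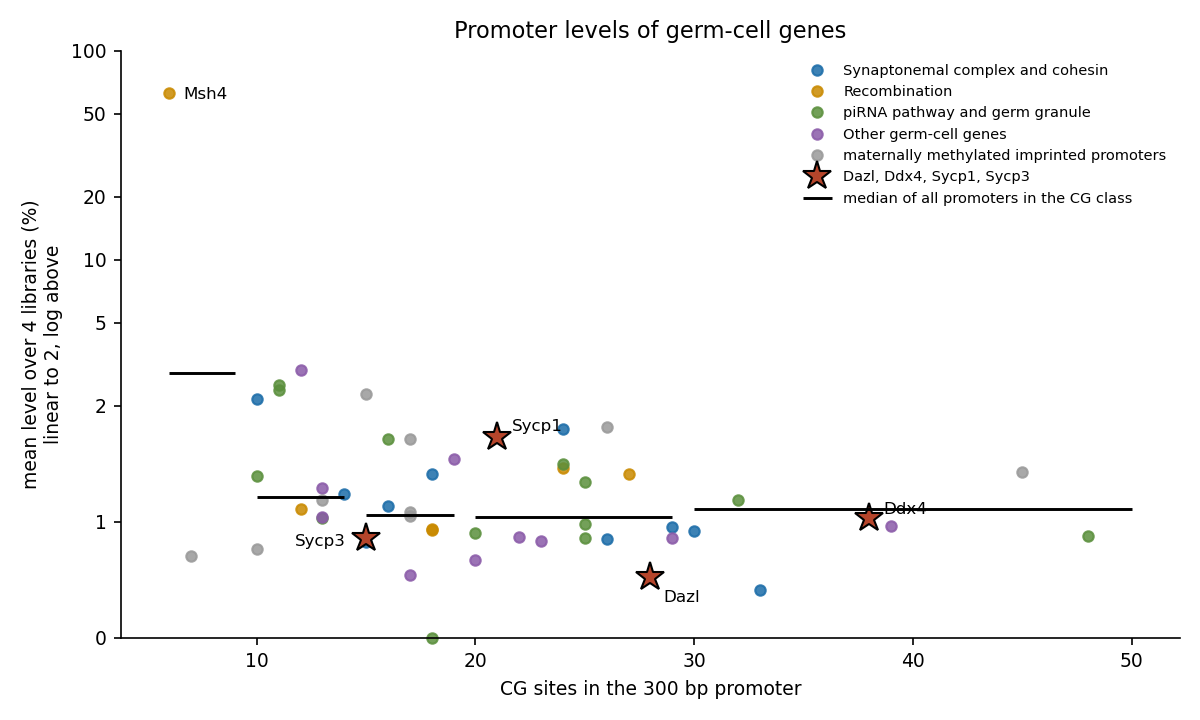
Mean promoter level over the 4 libraries (%, linear to 2 and logarithmic above) against the number of CG sites in the 300 bp promoter, with stars for Dazl, Ddx4, Sycp1 and Sycp3, circles for the gene lists and black lines for the median of all promoters by CG class. All genes shown but Msh4 lie at 2.95% or below.

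As a check of the label, promoters of 9 imprinted genes whose maternal copy is the methylated one were read too. They lay between 0.706% and 2.28%, all at 5% or less, as did 93.3% of all promoters, so the check is a weak one. At the imprinted stretch of such a gene, somatic cells carry methylation on the maternal allele and sperm do not, though the RefSeq promoter need not be that stretch in every gene of the list.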

How the data were processed

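TGBS was done by the authors on 2 libraries of swim-up sperm and 2 of HRCS: DNA was captured with a mouse Methyl-Seq kit, tagged after bisulfite conversion, sequenced as single reads of 100 cycles and mapped to mm9 with Bmap. The deposited tables hold raw counts per CG site and strand, 1 column for methylated reads and 1 for all reads. The columns carry no names: methylated reads were taken to be the column that is nowhere larger. Read so, 92.5% of windows with at least 10 CG sites are at 5% or less, and the reverse reading would make them nearly fully methylated. Libraries hold 71379227 to 89403347 calls each. Removal of duplicate reads is not given in the sources used here.

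Counts of the 2 strands of a CG were summed, and a site was kept if each library had 5 reads or more there. Gene starts were placed in mm9 by finding the 1 place where the spacing of CG sites in the tables equals that of the RefSeq promoter sequence (GRCm38.p6), which succeeded for 18316 of 18541 promoters with at least 6 CG. No tool for converting coordinates between builds was used. In the 4 loci all CG sites listed for mm9 (253, 520, 758 and 201) equal those of the GRCm38 sequence after a constant shift per locus. Exons, introns, gene ends and the pseudogene were therefore taken from the GRCm38 annotation and moved by that shift. Levels were compared over libraries with exact permutation tests, and windows of 200 bp with at least 3 sites with edgeR 4.0.16 (R 4.3.3, limma 3.58.1), with a term for each library, for methylated calls and for methylated calls in HRCS, and 1 dispersion. Python 3.11.15, numpy 2.4.6, pandas 2.3.3, scipy 1.17.1, matplotlib 3.10.9 and blastn 2.17.0 were used. Named were the 4 genes, the 3 lowest sites beyond and the 3 highest within an island, border sites, windows of smallest p, the 5 list genes closest in promoter levels and list genes above 25%. Genes, lists and tests were chosen with earlier results of these data known. Alternatives were minimums of 10 and 20 reads, added calls of the sites kept, minus-strand counts, and other limits of island, body and window. Fisher's exact test, a replicate block and leaving out each library were further ones.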

Additional observations from a re-analysis of the deposited data

How the results depend on the processing

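The island stayed below the sites beyond it in all 34 recomputed values for Dazl, Ddx4 and Sycp1, between −95.8 and −44.8 percentage points. The Sycp3 value rests on added calls of all sites. With every site beyond the island on the transcribed side it was −90.1 ± 6.39 points (SD, n = 4). Leaving out 1 library gave −62.2 to −44.8 for Dazl, −78.0 to −77.3 for Ddx4 and −95.8 to −93.6 for Sycp1. At a minimum of 10 reads Dazl had no site beyond its island, and at 20 reads Sycp1 had none either. The body inside the gene only and added calls of all sites were chosen after the data were seen. Of 63 recomputed differences between HRCS and swim-up sperm, 56 kept their sign. The Ddx4 island difference became 4.97 at its 1 site with 20 reads and −0.0645 with added calls, and ran from −0.0513 to 0.319 with 1 library left out. The Ddx4 difference beyond the island became −4.61 over the 16 sites with 20 reads, −2.85 with added calls, 0.150 on minus-strand counts and 2.04 inside the gene only, and ran from −0.920 to 0.879 with 1 library left out. The Dazl island difference was 0 over the 5 sites with 20 reads. At 20 reads that of Sycp1 was −0.128 over 48 sites and that of Sycp3 −0.127 over 11 sites (exact permutation p = 0.667 for each). Within 500 bp of the start these 2 were −0.884 and −0.468. Windows past the adjusted p genome-wide were 13, and 7 with sites of 10 reads, 6 with windows of 500 bp, 2397 by Fisher's exact test and 3 to 36 with 1 library left out. In the 4 loci they were 0 throughout, but 1 by Fisher's test. The replicate block left 9 genome-wide and 0 in the loci. Replicate 1 minus replicate 2 had an r of −0.00176 between the fractions across windows. These differences carry counting error, so r cannot tell whether libraries of the same number share more than the number. Depth limits what can be read: upstream of the islands no site had 5 reads in every library, and the 25 interior sites that did had 5 to 41. The cause of these shifts was not tested.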

Other observations

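Across the genome, windows of 200 bp fell mostly at the ends of the scale, as the 4 loci did: 41.6% of the 316993 windows were at 5% or less and 40.3% were above 75%. Among the 64896 windows with at least 10 sites 92.5% were at 5% or less, and among the 184175 with 3 to 5 sites 57.7% were above 75%. Piwil1, which encodes a piRNA-binding Argonaute protein of spermatids, had no methylated read at its 4 promoter sites with enough reads, out of 18 CG. Between 97.0% and 98.1% of the island calls were listed for the minus strand.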
